A study of Dendrobium nobile with 12 samples.

Results

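Stem and leaf of the orchid Dendrobium nobile were compared by RNA-seq in 4 of the series' 12 libraries, the 2 stem and 2 leaf libraries, chosen by their tissue labels. The plants of these libraries are labelled as 1-year seedlings of 1 genotype, grown in a greenhouse, with no treatment other than the choice of tissue. Root (1-year seedlings) and the floral tissues bud, petal and labellum, the lip petal (2-year seedlings), had the same genotype and 2 libraries each. They were read only for the gene models that differed between stem and leaf. Normalisation, filtering and the estimate of spread were taken from the 4 stem and leaf libraries alone. Seedling age and floral origin change together, so they cannot be told apart. The organism label is Dendrobium nobile, while the design text of the series names D. officinale. Nothing in the labels shows whether replicates of a tissue came from different plants, so the p-values reflect a spread between libraries that may be technical.

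In orchids of this genus the stem is a thickened, jointed organ that stores water and polysaccharides and carries the vascular tissue, and young stems also photosynthesise. The leaf is the main photosynthetic organ, and its messenger RNA is usually dominated by a small number of very abundant photosynthetic transcripts. Dendrobium nobile is known for picrotoxane alkaloids such as dendrobine, which are collected from the stem. The deposited identifiers are gene models with a chromosome and a serial number and are not paired with gene names or products. Which functions the differing models have, whether the labelled organs carry their defining markers, and any sequence are therefore not given, and few identifiers are named. Where a difference is described in bulk tissue, fewer cells of a type and less RNA per cell cannot be told apart.

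The replicates of both organs were close. Total counts were 28699617 and 27175842 in the stem libraries and 32040196 and 31341240 in the leaf libraries. Root libraries held 14165136 and 5289212 counts, and the floral libraries between 27307456 and 30860097. Spearman's rho across the 17490 tested models, which are not independent replicates, was 0.995 between the stem libraries, 0.996 between the leaf libraries, and 0.895 between stem and leaf. The biological coefficient of variation (the spread between replicates beyond counting noise) was 0.0728. Replicates still differed by more than counting noise, as the chi-square over its degrees of freedom was 4.52 for stem and 4.44 for leaf (17331 and 17056 models with a summed count of at least 10), so they were counted as separate libraries.

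Stem and leaf differed in many models by a small amount and in fewer by a large one, and the balance between the organs changed with the size of the difference. Of the tested models, 61.5% (10748) had a Benjamini-Hochberg adjusted p under 0.05 (edgeR quasi-likelihood test, two-sided), of which 5337 were higher in stem and 5411 higher in leaf. In 6252 of these the difference was under 2-fold. Models that also differed at least 2-fold are called differing models here. They numbered 2068 higher in stem (11.8% of those tested) and 2428 higher in leaf (13.9%). At 8-fold or more the order turned, with 727 models higher in stem (4.16%) and 310 higher in leaf (1.77%). At 32-fold or more there were 350 and 93.

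The leaf excess therefore lay in the smallest class. Between 2-fold and 4-fold, 884 models were higher in stem and 1660 in leaf. Between 4-fold and 8-fold the numbers were nearly equal, 457 and 458. In the class from 8-fold to 32-fold they were 377 and 217. The majority at 2-fold depended on scaling, and the majority at 8-fold did not. With total counts in place of TMM factors (which rest on the assumption that most models do not change), the median log2 fold change, taken over the tested models, went from 0.00 to 0.19. There, 2456 models were higher in stem and 1952 in leaf, so that the stem share of the calls went from 46% to 55.7%, while 790 and 270 were at least 8-fold higher. Limma on FPKM, which also scales by library totals, called 1870 higher in stem and 1561 in leaf at log2(FPKM + 1), and 2432 and 1933 at log2(FPKM + 0.1). When one model was fitted to all 12 libraries, whose coefficient of variation was 0.314, 1340 models were higher in stem and 1581 in leaf, and 613 and 244 at 8-fold.

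**Figure D1:**
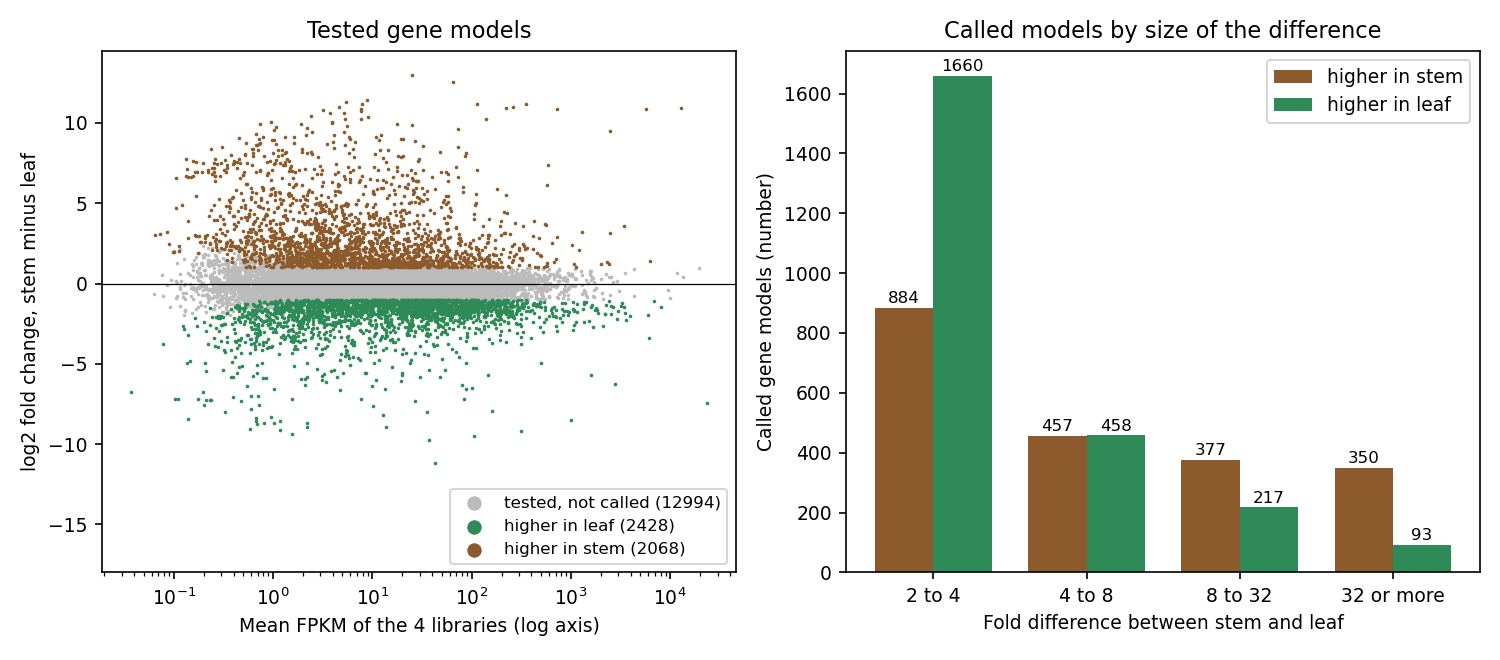
Left, log2 fold change of stem minus leaf against the mean FPKM of the 4 libraries (log axis) for each tested model; right, numbers of differing models in 4 classes of fold. Models higher in leaf outnumbered those higher in stem from 2-fold to 4-fold (1660 against 884), and the order was the opposite at 32-fold or more (93 against 350).

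Abundance separated the sets as well. FPKM (counts scaled by coding length and by library total) of the models higher in stem had a median of 9.29 in stem and 1.26 in leaf. For the models higher in leaf the medians were 24.8 in leaf and 8.19 in stem, against 15.8 in stem and 14.0 in leaf for all tested models. When the tested models were put in 5 equal classes by their mean FPKM over the 4 libraries, the lowest class (up to 3.07 FPKM) held 776 models higher in stem and 558 higher in leaf. The highest class (from 52.5 FPKM) held 263 and 639. In stem, the median FPKM of the models higher there went from 12.1 for those 2-fold to 4-fold higher to 5.08 for those at least 32-fold higher. In leaf the same medians went from 31.7 to 4.30. Of the classes, the lowest also held the most large folds, with 338 of the 727 models at least 8-fold higher in stem and 148 of the 310 in leaf.

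Differing models took a larger part of the messenger RNA in leaf than in stem. The models higher in leaf took 32.8% ± 0.00739 of leaf counts and 10.7% ± 0.00884 of stem counts (mean ± SD, n = 2 each). Those higher in stem took 16.5% ± 0.0273 of stem counts and 2.91% ± 0.0091 of leaf counts. Which organ is higher was fixed by how the models were chosen, so these shares describe their size only. The replicates of an organ lay within a small fraction of a percent of each other. The top end was similar in size, since the 10 most abundant members took 5.97% ± 0.0244 of stem counts and 6.12% ± 0.0249 of leaf counts. The 100 most abundant members took 11.0% ± 0.0205 of stem counts and 18.9% ± 0.0105 of leaf counts. Models tested but not called took 72.8% of stem and 64.3% of leaf counts.

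In root and flower these shares lay between the values of stem and leaf, or below them. The models higher in stem took 7.49% and 8.57% of counts in the root libraries, 9.32% and 8.55% in bud, 7.89% and 7.92% in petal, and 7.63% and 7.37% in labellum. All of these libraries lay above both leaf libraries and below both stem libraries. The models higher in leaf took 8.33% and 8.28% of counts in root, which was below stem. They took 15.2% and 14.6% in bud, 11.9% in each petal library, and 12.6% and 13.0% in labellum, all above stem and below leaf. Their 10 most abundant members took 4.88% ± 0.771 of bud counts against 1.52% ± 0.000484 of stem counts and 0.132% ± 0.0302 of root counts (n = 2 each).

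**Figure D2:**
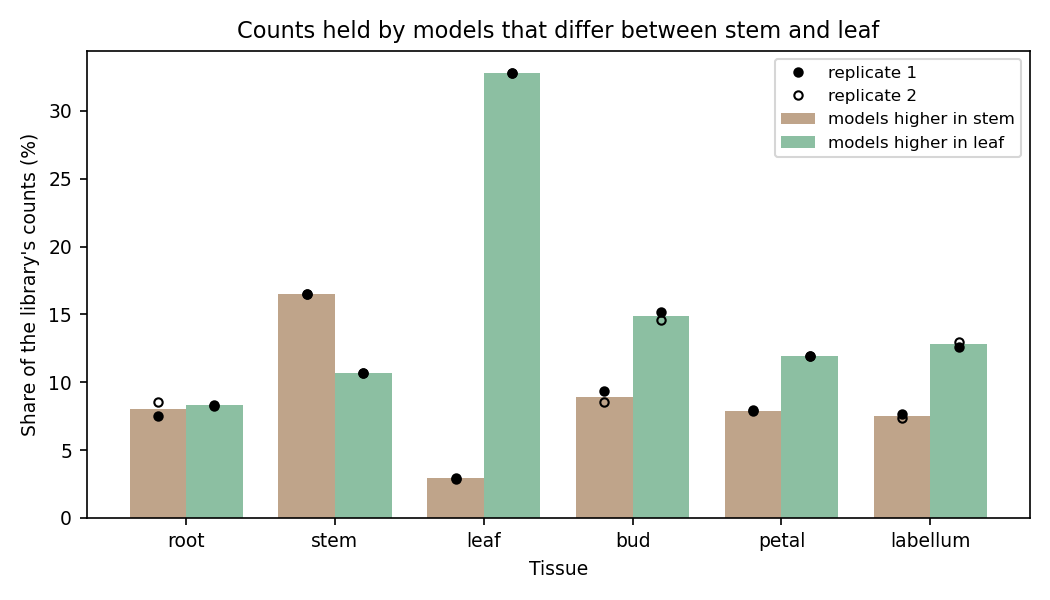
Share of each library's total count (percent) taken by the models higher in stem and by those higher in leaf; bars are means of 2 libraries and circles the libraries. The leaf set stands at 32.8% in leaf and 8.31% in root, and the stem set at 16.5% in stem and 2.91% in leaf.

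The models at the ends of the range show both kinds of difference, a presence in a single organ and a very large amount. They were chosen as the model of largest fold and the model of largest FPKM difference in each direction. The model of largest fold in stem was evm.model.HiC_scaffold_21.5-gene (coding length 708 bp, on scaffold 21). It stood at 51.2 and 49.6 FPKM in the stem libraries, with 1041 and 955 counts, and had 0 counts in both leaf and both root libraries. In flower it had 1 count in bud replicate 1, 1 count in petal replicate 1 and 0 in the others. Stem alone carried this model beyond single counts. It was at least 755-fold higher in stem than in leaf, taking a floor of 3 counts over the leaf libraries (at least 373-fold without leaf replicate 1 and at least 382-fold without leaf replicate 2). Its adjusted p was 2.12e-19 (edgeR quasi-likelihood F test, adjusted by Benjamini-Hochberg).

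The model of largest FPKM difference in stem was evm.model.Chr19.1029-gene (498 bp, chromosome 19), which was also the most abundant member of the stem set. Its FPKM was 25900 and 25800 in the stem libraries and 10.1 and 13.4 in the leaf libraries. It took 1.29% and 1.28% of stem counts. Root held it at 343 and 921 FPKM, bud at 28.6 and 21.7, petal at 17.0 and 0.142, and labellum at 6.75 and 9.45. Stem lay above all other tissues, root came next, and leaf lay in the range of the floral libraries. The log2 fold change of stem over leaf was 10.92 ± 0.04 (SE), with an adjusted p of 9.65e-39 (edgeR quasi-likelihood F test, adjusted by Benjamini-Hochberg).

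In leaf the largest fold was that of evm.model.Chr09.410-gene (948 bp, chromosome 9). It stood at 84.3 and 86.5 FPKM in the leaf libraries and had 1 count in each stem library. Root held it at 15.4 and 52.7 FPKM, while the 6 floral libraries held between 0 and 4 counts. Leaf and root thus carried this model, and stem and flower hardly did. The ratio of pooled CPM (counts scaled by library total) was 2260, with a 95% interval of 626 to 18700 from the exact Poisson limits of the 2 stem counts. Its adjusted p was 1.84e-24 (edgeR quasi-likelihood F test, adjusted by Benjamini-Hochberg).

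The largest FPKM difference in leaf was that of a very short model, evm.model.Chr04.158-gene (186 bp, chromosome 4). It reached 47200 and 45800 FPKM in leaf against 288 and 313 in stem, and took 0.877% and 0.852% of leaf counts. In root it stood at 110 and 3.05 FPKM, in bud at 57.9 and 29.7, in petal at 41.1 and 38.9, and in labellum at 21.2 and 27.4. Stem was second to leaf, and the root libraries were far apart, with 290 and 3 counts. Its log2 fold change of stem minus leaf was -7.46 ± 0.03 (SE), with an adjusted p of 2.89e-39 (edgeR quasi-likelihood F test, adjusted by Benjamini-Hochberg). FPKM of a model this short is high for its count, because the count is divided by a small length.

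**Figure D3:**
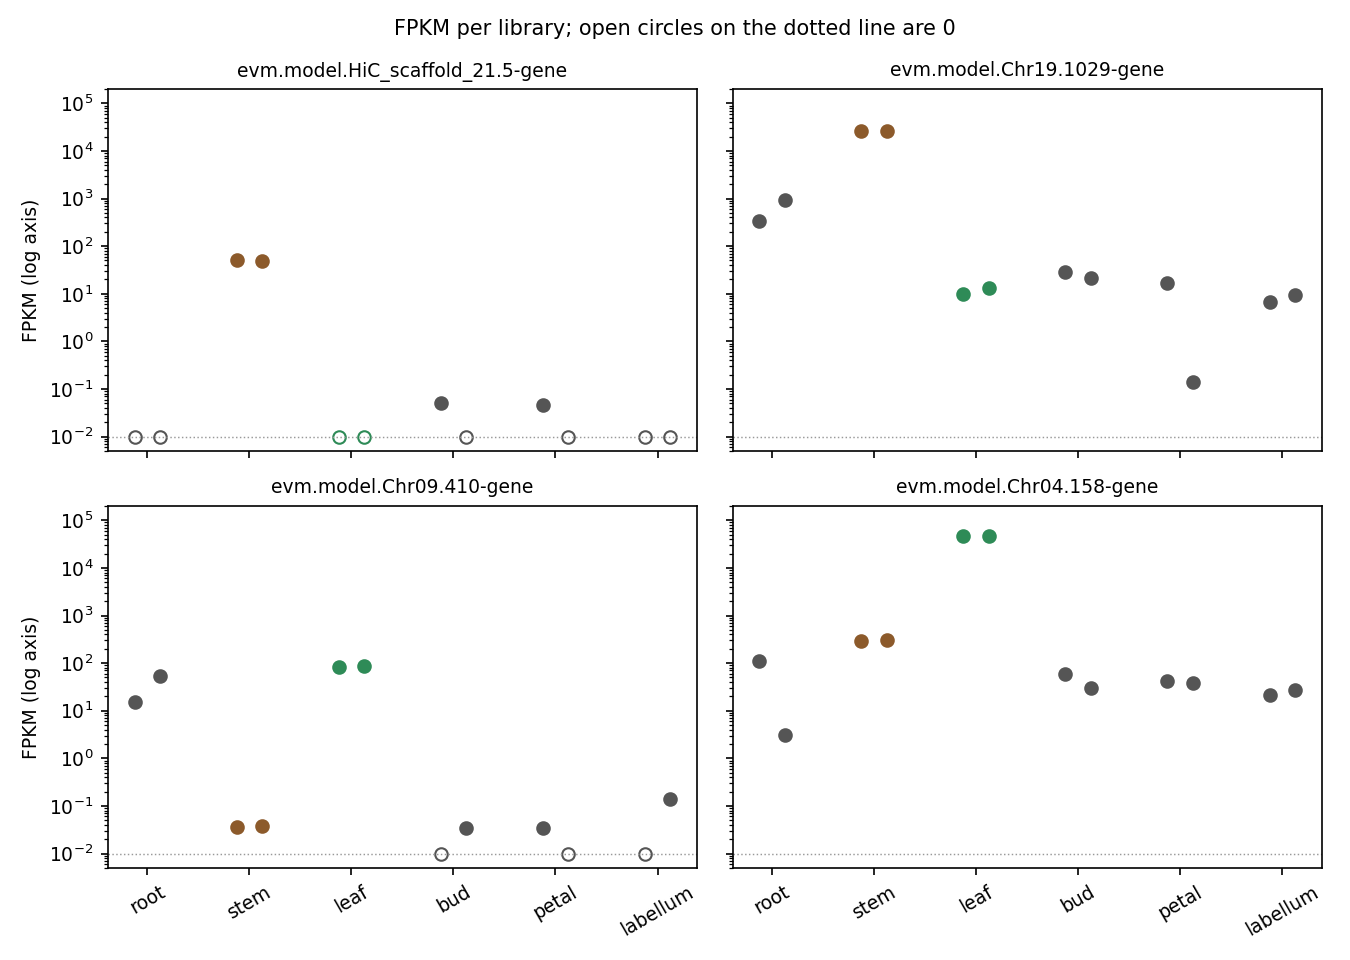
FPKM in each of the 12 libraries (log axis) of the models with the largest fold and the largest FPKM difference in each direction; each circle is a library and open circles on the dotted line are 0. The replicates of stem and leaf nearly coincide, and evm.model.Chr09.410-gene is at 15.4 and 52.7 FPKM in root although stem has 1 count per library.

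Complete switches between the organs were mostly in favour of stem. A model was taken as on in a tissue when both of its libraries reached an FPKM of 1, and as off when both were under 0.1. Among the differing models, 151 were on in stem and off in leaf, and 23 were on in leaf and off in stem. Of the 151, 35 were on in root, 37 in bud, 31 in petal and 39 in labellum, and 75 were on in none of these. Of the 23, 17 were on in none of the other tissues and 3 were on in root. Differing models that were on in no tissue but their own numbered 217 for stem and 155 for leaf. Zero counts in both libraries of the lower organ were found for 125 models higher in stem and 29 higher in leaf. The leaf libraries had larger total counts but smaller TMM factors (0.939 and 0.937) than those of stem (1.067 and 1.066). What depth and scaling contribute to these numbers was not tested.

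Elsewhere in the plant, a model was on less often the more strongly it differed between stem and leaf. Of the models higher in stem, 60% were on in root, 63.8% in bud, 59.4% in petal and 59.7% in labellum. Of those higher in leaf, the shares were 65.8%, 75.1%, 72.4% and 73.1%. All tested models were on in 79.1%, 80.4%, 79.2% and 80%. With the class of fold, from 2-fold to 4-fold up to 32-fold or more, the share of the stem set that was on in root went from 74.9% to 34.6% and in bud from 78.8% to 33.1%. For the leaf set it went from 76.3% to 21.5% in root and from 82.8% to 34.4% in bud. The share on in all 6 tissues was 33.1% for the stem set, 52.5% for the leaf set and 66.6% for all tested models. Levels followed, because models 32-fold or more higher in leaf had a median FPKM of 0.0523 in root and 0.457 in bud, and those 32-fold or more higher in stem 0.866 and 0.700. Models with larger folds also had lower levels in their own organ, and the part of this in the trend was not tested.

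**Figure D4:**
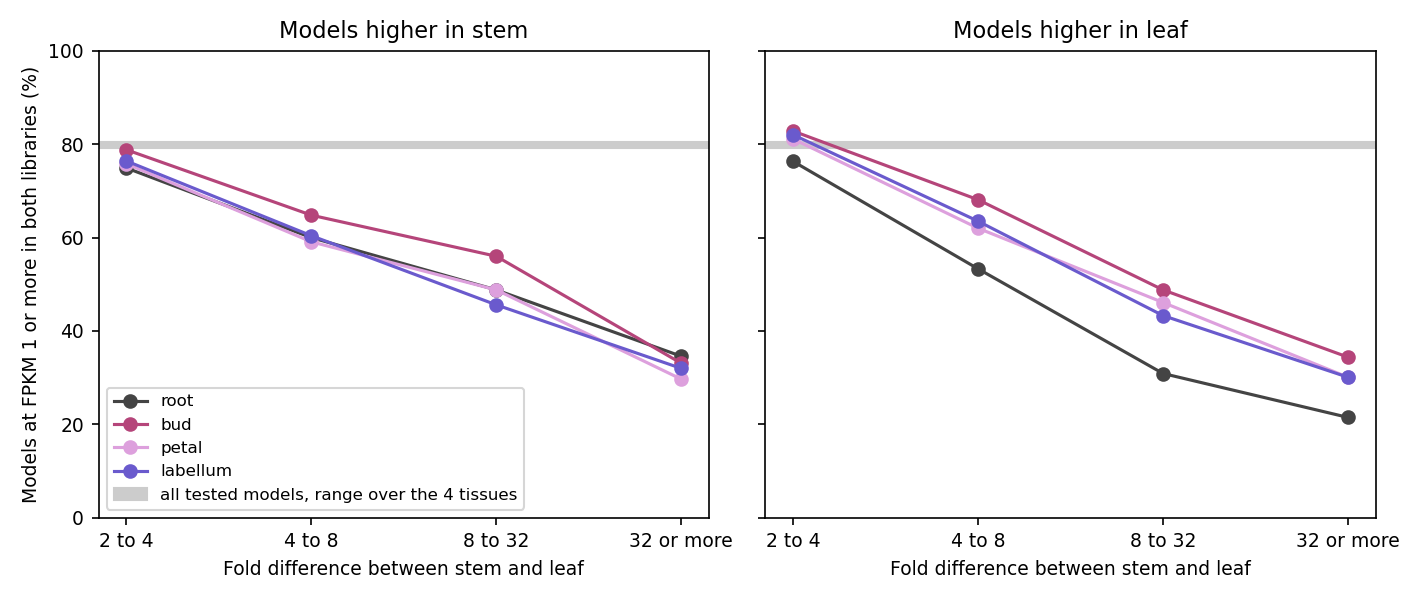
Percentage of differing models whose FPKM reached 1 in each library of root, bud, petal or labellum, by class of fold between stem and leaf; the grey band spans the 4 tissues for all tested models. Every line falls with the fold, and for the leaf set root lies lowest, at 21.5% in the last class.

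The place of each other tissue relative to stem and leaf was different for the sets. Levels are mean log2 CPM after TMM scaling of the 12 libraries, and since stem and leaf values chose the models, these counts are a description. Among the 2068 models higher in stem, root was below both shoot organs for 758, between them for 774 and above both for 536. Among the 2428 models higher in leaf, root was below both for 1647 (67.8%), between them for 366 and above both for 415. In bud, 589 models of the stem set were below both organs, 798 between and 681 above. For the leaf set these numbers were 1168, 733 and 527. Petal and labellum were below both organs for 734 and 718 models of the stem set and for 1274 (52.5%) and 1297 (53.4%) of the leaf set. Among models not called, root was below both organs for 49.7%, bud for 48.7%, petal for 47.4% and labellum for 46.1%. The leaf-set share for bud, 48.1%, was thus close to that of models not called. By their choice, differing models have stem and leaf further apart, which leaves more room between them. Root was between them for 37.4% of the stem set, 15.1% of the leaf set and 12.1% of models not called.

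Leaf was more often the tissue of highest level for its own set than stem was. Of the models higher in leaf, 1545 (63.6%) had their highest mean of the 6 tissues in leaf, and 269 had it in root, 228 in bud, 220 in petal and 166 in labellum. Of the models higher in stem, 1020 (49.3%) had it in stem, and 344 had it in root, 348 in bud, 227 in petal and 129 in labellum. At the other end, root was the lowest of the 6 tissues for 1188 models (48.9%) of the leaf set, and stem for 439. For the stem set leaf was the lowest for 799 and root for 593 (28.7%). Among models not called, leaf was the highest for 18.3%, stem for 14.7% and root for 22.8%, and root was the lowest for 30.4%. The share of the stem set lowest in root was thus close to that of models not called. That leaf or stem is higher than the other organ in its own set follows from the choice of the models.

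Root against flower shares no library with stem against leaf, and was used to place the differing models without a common sample. In this comparison root was set against the mean of bud, petal and labellum, fitted to these 8 libraries alone. Over all 18425 models tested there, 22.4% were higher and 24.6% lower in root at an adjusted p under 0.05 and 2-fold. Of the 2068 models higher in stem, 1896 passed the filter there, of which 510 were higher and 549 lower in root. With total counts as the scaling these were 549 and 512, so the direction with more calls in the stem set turned. It also turned with the bud libraries left out, an alternative chosen after seeing the data, at 568 and 537. Of the 2428 models higher in leaf, 2282 passed, of which 402 were higher and 863 lower in root. The leaf set thus held 37.8% called lower in root, and the stem set 29.0%. For the leaf set the numbers with total counts were 440 and 781. The median log2 fold change of root over flower was -0.18 in the stem set, -0.80 in the leaf set and -0.02 in models not called between stem and leaf. Across 16878 models tested in both comparisons, Spearman's rho of the log2 fold changes was 0.0951, which is a description over models that share libraries and depth.

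By class of fold, the balance shifted in the stem set toward models higher in root, while in the leaf set calls in both directions became more frequent. Of the stem-set models tested in this comparison, those higher in root went from 23.1% in the class from 2-fold to 4-fold to 34.9% at 32-fold or more, and those lower in root went from 30.2% to 25.1%. For the leaf set, those lower in root went from 36.6% to 44.1% and those higher in root from 16.4% to 30.5%. In the last class, 275 of 350 stem-set models and 59 of 93 leaf-set models were tested. In the first class, 870 of 884 and 1630 of 1660 were tested. A model entered only with enough counts in root or floral libraries, so the shares leave out models low in all of them. What this filter contributes to the shares was not tested. Median log2 fold changes of root over flower in the stem set were -0.21, -0.20, -0.19 and 0.84 in order of fold. The change there lay in the last class. In the leaf set the medians ran from -0.70 to -2.31.

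**Figure D5:**
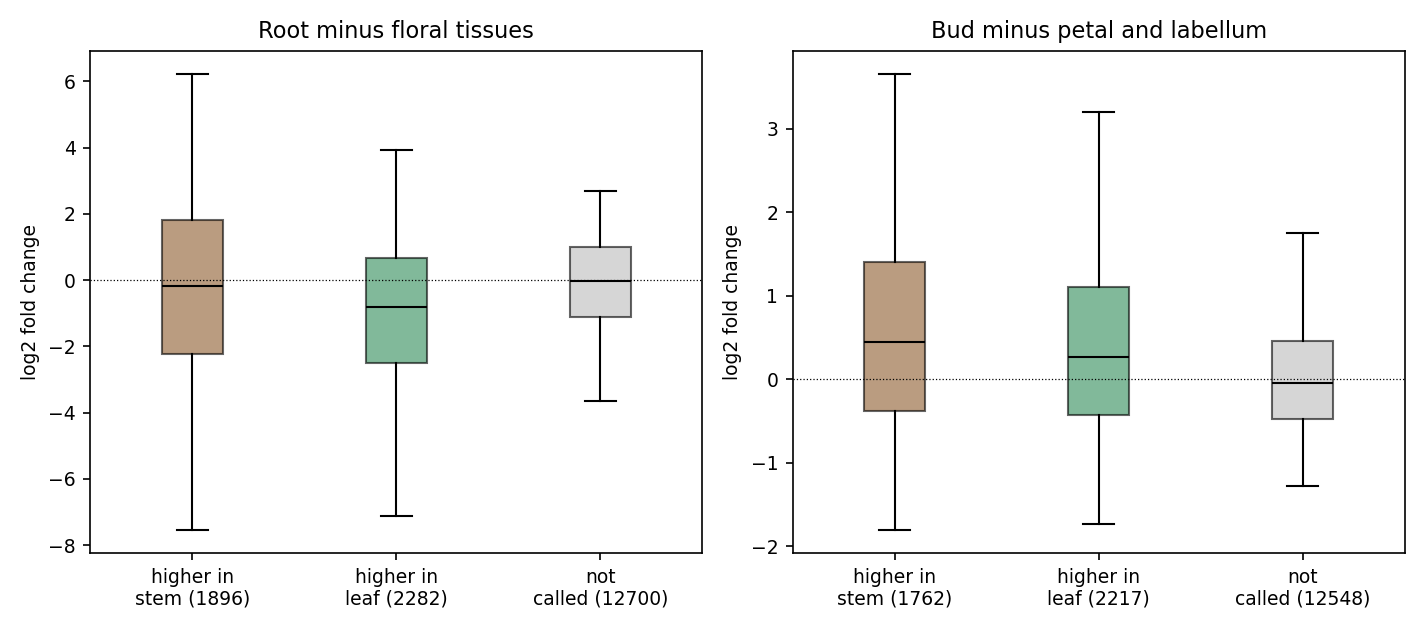
Log2 fold change of root minus the floral tissues (left) and of bud minus petal and labellum (right) for models higher in stem, higher in leaf and not called between them; boxes span the quartiles with the median, and whiskers the 5th to 95th percentile. The median of root minus flower is -0.80 in the leaf set and -0.18 in the stem set.

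Single models show that the levels of stem and leaf can both be small beside the level elsewhere. They have the largest fold in each direction among differing models with an average log2 CPM of 3 or more, where the sides compared do not overlap in any library. Their differences between root and flower, and between stem and leaf, follow from that choice. Among models higher in stem, evm.model.Chr18.1177-gene (285 bp, chromosome 18) stood at 3680 and 1490 FPKM in root, at 15.9 and 23.5 in stem and at 0.767 and 1.23 in leaf. The 6 floral libraries held 13 counts of it in all, against 17088 in root. The ratio of pooled CPM was 11900 (95% counting interval 6960 to 22300), or 5760 without root replicate 1 and 21800 without bud replicate 1. Its adjusted p was 1.43e-05 for root against flower (edgeR quasi-likelihood F test, adjusted by Benjamini-Hochberg). Root was its main tissue. The levels of stem and leaf, which differed by log2 4.10 ± 0.42 (SE), both lay far below the root level.

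The opposite case was evm.model.Chr18.1363-gene (885 bp, chromosome 18), which had 0 counts in root. It stood at 5.16 and 5.36 FPKM in stem and 0.564 and 1.12 in leaf. In flower it was at 103 and 2140 in bud, 21.0 and 17.5 in petal, and 970 and 216 in labellum. The floral libraries were all above the shoot libraries but differed widely within bud and within labellum. Flower was at least 3380-fold above root, with bounds of 918-fold when root replicate 1 was left out and 1520-fold when bud replicate 2 was. The adjusted p was 0.00384 (edgeR quasi-likelihood F test, adjusted by Benjamini-Hochberg), and with limma-voom and a variance weight per tissue, an alternative chosen after seeing the data, it was 0.0517.

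Among models higher in leaf, evm.model.Chr11.1674-gene (1530 bp, chromosome 11) was at 0.694 and 1.46 FPKM in leaf and had 1 and 0 counts in the stem libraries. In root it was at 53.3 and 119, in bud at 0.311 and 0.944, and it had 0 counts in petal and labellum. Root was the main tissue of this model too. The pooled ratio of root to flower was 337 (95% counting interval 260 to 445), or 564 without root replicate 1 and 1220 without bud replicate 2. Conversely, evm.model.Chr15.822-gene (714 bp, chromosome 15) was at 15.3 and 15.5 FPKM in leaf, 4.88 and 5.26 in stem and 0 in root. It stood at 85.9 and 145 in bud, 136 and 106 in petal, and 76.6 and 98.0 in labellum, so that every floral library lay above leaf. Flower was at least 503-fold above root, or at least 137-fold without root replicate 1. Adjusted p values for root against flower were 5.25e-05 and 2.07e-05 (edgeR quasi-likelihood F test, adjusted by Benjamini-Hochberg).

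Within the flower, both sets leaned to bud, and so did all tested models. Bud was set against the mean of petal and labellum in a fit of these 6 libraries, where 10.3% of all 17653 tested models were higher and 4.72% lower in bud. Of the stem set, 1762 models passed the filter there, with 319 higher and 98 lower in bud. Of the leaf set, 2217 passed, with 326 higher and 137 lower. As shares of those tested, 18.1% of the stem set and 14.7% of the leaf set were higher in bud, against 5.59% of the models not called between stem and leaf. Lower in bud were 5.56% of the stem set, 6.18% of the leaf set and 4.57% of the models not called. Median log2 fold changes were 0.45, 0.26 and -0.04. The filter was passed by 1762 of 2068 models of the stem set, 2217 of 2428 of the leaf set and 12548 of 12994 not called. On in all 6 tissues were 33.1% of the stem set and 52.5% of the leaf set, against 66.6% of all models tested between stem and leaf. What filter and breadth contribute to the shares higher in bud was not tested. The number higher in bud moved with single libraries. For the stem set it was 122 without petal replicate 1, 108 without petal replicate 2, 162 without labellum replicate 1 and 164 without labellum replicate 2. For the leaf set it was 142, 127, 173 and 169 without the same libraries. The numbers lower in bud were 177 and 181 (stem set) and 252 and 243 (leaf set) without bud replicates 1 and 2. Without petal replicates 1 and 2 and labellum replicates 1 and 2 they were 51, 48, 57 and 56 for the stem set and 63, 64, 78 and 87 for the leaf set. With any of the petal or labellum libraries left out, the models higher in bud outnumbered those lower. The share over all tested models was not counted without these libraries, so whether the sets still exceeded it is not known.

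In each set, the model of largest fold higher in bud, chosen by the same rule, was shared by bud with a single shoot organ. Its high level in bud and its difference between stem and leaf follow from that choice. Among models higher in stem, evm.model.Chr09.1637-gene (1044 bp, chromosome 9) was at 98.7 and 49.9 FPKM in bud, 11.0 and 10.4 in stem, and 0.269 and 0.397 in leaf. All root, petal and labellum libraries were under 0.5 FPKM, so bud and stem stood apart from the other tissues. The ratio of bud to petal and labellum was 347 (95% counting interval 236 to 530), or 571 without petal replicate 2. Among models higher in leaf, evm.model.Chr11.704-gene (570 bp, chromosome 11) was at 99.3 and 32.4 FPKM in bud and 3.23 and 3.02 in leaf. It had 0 and 3 counts in stem and 0 in root, petal and labellum. Bud was at least 1440-fold above petal and labellum, with bounds of 728-fold when bud replicate 1 was left out and 2230-fold when bud replicate 2 was. Adjusted p values for bud against petal and labellum were 0.0031 and 0.00577 (edgeR quasi-likelihood F test, adjusted by Benjamini-Hochberg).

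Other members were low in bud and high in the open flower. Among models higher in stem, evm.model.Chr06.2196-gene (1758 bp, chromosome 6) was at 43.2 and 32.4 FPKM in petal and 24.9 and 23.7 in labellum. Stem held it at 0.337 and 0.523, leaf at 0 and 0.0363, root at 0.442 and 0, and bud at 0.333 and 0.131. Its shoot difference of log2 4.23 ± 1.10 (SE) thus rested on levels under 1 FPKM. The ratio of petal and labellum to bud was 138 (95% counting interval 91.7 to 217), or 238 without bud replicate 1. Among models higher in leaf, evm.model.Chr11.110-gene (471 bp, chromosome 11) was at 34.6 and 18.9 FPKM in root and at 5.23 and 6.23 in leaf. Petal held it at 21.1 and 41.0, labellum at 18.1 and 34.0, stem at 0.888 and 0.547, and bud at 1.63 and 0. Its ratio to bud was 36.9 (95% counting interval 24.1 to 59.5), at least 136 without bud replicate 1 and 17.4 without bud replicate 2. For bud against petal and labellum, the adjusted p was 0.00139 for the first and 0.0391 for the last (edgeR quasi-likelihood F test, adjusted by Benjamini-Hochberg). The second was between 0.089 and 0.134 when a petal or labellum library was left out.

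Coding length hardly separated the sets. Its median was 1092 bp in the stem set, 1089 bp in the leaf set and 1167 bp in all tested models, and 1014 and 966 bp among models at least 8-fold higher. Across all tested models rho of the log2 fold change with length was 0.0253. The differing models were spread over all 19 chromosomes. The share of a chromosome's tested models that were higher in stem ran from 10.2% on chromosome 2 to 13.8% on chromosome 6. The share higher in leaf ran from 9.29% on chromosome 1 to 16.2% on chromosome 18.

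Models with consecutive serial numbers differed together more often than the background. Among 11539 pairs of tested models with consecutive numbers on a chromosome, the second member was higher in stem in 10.9% and higher in leaf in 13.6%. After a model higher in stem, these shares were 16% and 13.6%. After a model higher in leaf, the second was higher in leaf in 19.6% and higher in stem in 8.64%. Among models at least 8-fold different, a stem model was followed by another in 11.2% of cases against 3.70% over all pairs. A leaf model was followed by another in 10.7% against 1.61%. With pairs of equal coding length left out, since near-identical copies can share reads, the values at 8-fold were 9.83% and 6.74%. Opposite neighbours at 8-fold, with all pairs kept, were few, 15 pairs in all. A leaf model was followed by a stem model in 4.85% of 206 cases, against 3.70% over all pairs. A stem model was followed by a leaf model in 1.17% of 428 cases, against 1.61%. With so few pairs, no direction is read from these shares. The order of serial numbers was taken as the order along the chromosome, which no coordinate in the tables shows.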

How the data were processed

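The authors deposited whole-number read counts per gene model, not normalised, and FPKM values for the same 31672 models in 12 libraries. Per the labels' protocols, libraries were made with a SMARTER kit from column-purified total RNA. The aligner, counting rule, strand handling and gene model build were not given in the sources used here. GRCm38 and mm10, which are mouse builds, stand in the submitters' processing notes. Each FPKM equalled the count scaled by the library total and by one length per model (tolerance 0.01 bp), and these lengths are multiples of 3, so they are coding lengths. Overlapping, antisense and near-identical models are uncertain.

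Counts were tested with edgeR 4.0.16 (R 4.3.3; filterByExpr, TMM, quasi-likelihood test) in separate fits of the stem and leaf, the root and floral, and the floral libraries. Of all models, 17490 (55.2%) passed the filter for stem against leaf, with 2 residual degrees of freedom. A call needed an adjusted p under 0.05 over all tested models and a 2-fold change. SE was obtained from the log2 fold change and the F statistic. Pooled ratios use total counts, and floors (3 counts over the lower group) and intervals cover counting error only. Alternatives were DESeq2 1.42.0, limma 3.58.1 on log2(FPKM + 1) and log2(FPKM + 0.1), other scaling, no filter, all 12 libraries, a replicate block, leaving out each library, and, chosen after seeing the data, leaving out bud and limma-voom with tissue weights. The self-test used simulated counts. Named models are, for stem against leaf, the largest fold (average log2 CPM of at least 3) and the largest FPKM difference per direction, and otherwise the largest non-overlapping fold per direction and set. Members, lists and rules were chosen with earlier results of these data known. Lists of gene products were not tested, because identifiers carry no product.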

Additional observations from a re-analysis of the deposited data

How the results depend on the processing

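The excess of stem over leaf at 8-fold or more was found under each alternative for which 8-fold counts were made, which leaves out the test against 1.5-fold and the call with no minimum fold. Without single libraries, models higher in stem ran from 1934 to 2032 and in leaf from 2334 to 2396, and at 8-fold from 711 to 767 and from 297 to 348. No paired sampling is stated for the replicate numbers, and deviations of equal numbers were uncorrelated (r = 0.00859), and with the replicate block 2036 models were higher in stem and 2395 in leaf. The fit of all 12 libraries gave 1340 and 1581, and 64.1% of the calls were shared. With no minimum fold, 5337 and 5411 were called. Limma on log2(FPKM + 1) called 1870 higher in stem and 1561 in leaf, and 294 (stem) and 87 (leaf) at 8-fold, and log2(FPKM + 0.1) gave 2432 and 1933, with 194 for leaf at 8-fold. These settings change test, scaling and pseudocount together, and their parts were not tested separately. Higher in bud were 108 to 423 of the stem set and 127 to 483 of the leaf set without single libraries, and lower in bud 48 to 181 and 63 to 252. With voom weights per tissue, chosen after seeing the data, 48 and 87 were lower in bud. At an FPKM of at least 5, 758 models of the stem set were on in root, 851 in bud, 790 in petal and 806 in labellum. With the smaller sets from the fit of all 12 libraries, root was below both organs for 419 and above both for 337 of the stem set, and bud, petal and labellum below both for 302, 366 and 373. For the leaf set root was above both for 247, and bud, petal and labellum below both for 728, 776 and 800. At 8-fold, 11.2% (stem) and 10.7% (leaf) of models were followed by another, and 9.08% and 11.3% were on in all 6 tissues. The adjusted p of evm.model.Chr11.110-gene was 0.0865 with the replicate block and 0.284 with voom weights. Other causes were not tested. Depth limits root most, with 5289212 counts in its second library.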

Other observations

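Differing models also formed runs of consecutive serial numbers. Of the 2055 models higher in stem on chromosomes, 368 stood in 167 runs of 2 or more neighbours that were all higher in stem. Of the 2410 models higher in leaf, 576 stood in 261 runs. Over all pairs of tested models with consecutive numbers, the second was higher in stem in 10.9% and higher in leaf in 13.6%. How many models would stand in runs at these background shares was not worked out, so the run counts alone do not show grouping. The longest run in leaf had 4 models, and there were 6 of that size. The longest in stem had 6 models on chromosome 15, from evm.model.Chr15.1196-gene to evm.model.Chr15.1201-gene. It was singled out with its values in view.

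These 6 models have coding lengths of 1521 to 1542 bp, 4 of them 1533 bp, so that reads shared between near-identical copies cannot be told apart from separate expression. The fourth in the run, evm.model.Chr15.1199-gene, was at 228 and 220 FPKM in stem and 0.122 and 0.0416 in leaf. The fifth, evm.model.Chr15.1200-gene, was at 710 and 702 FPKM in stem and 0.326 and 0.208 in leaf. The weakest in stem, evm.model.Chr15.1197-gene, was at 11.5 and 9.10 FPKM against 0.0204 and 0 in leaf. Every stem library lay above every leaf library for the 6 models. Log2 fold changes ran from 5.48 to 11.18. The highest library value of any of them was 3.60 FPKM in root, 8.74 in bud, 6.17 in petal and 12.1 in labellum, the floral ones all of evm.model.Chr15.1198-gene.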
